A study of Mus musculus with 4 samples.

Results

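The genes described here encode telomerase and the proteins that bind telomeres. They are 10 genes, found by their symbols among the 24421 genes of the count files: Tert and Dkc1 of telomerase, the shelterin genes Terf1, Terf2, Terf2ip, Tinf2, Acd, Pot1a and Pot1b, and Rif1. All 10 were counted in every library, between 423 counts for Tert in a Day4 library and 23226 for Rif1 in an Undiff library. The RNA came from R1, a single established line of mouse embryonic stem cells (ESCs) with no allele or transgene named, and was sequenced as 2 libraries of Undiff and 2 of Day4. Undiff is described in the methods of the study as cells kept in leukaemia inhibitory factor, which keeps ESCs from differentiating, and in the sample labels as embryoid bodies, aggregates in which ESCs differentiate. Day4 is embryoid bodies kept without that factor. According to the methods, they first grew for 4 days, and a vitamin A metabolite, retinoic acid (RA), was then present for another 4. The dose is 2 µM in the series' design text and 2 mM in the sample labels. A Day4 culture without RA was not analysed here, so that RA, loss of the factor and time in culture cannot be told apart. According to the methods, the replicates were cultured and treated apart from each other.

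Telomerase adds TTAGGG repeats to chromosome ends. Its catalytic subunit Tert copies a short template in the RNA subunit Terc, and dyskerin, the product of Dkc1, binds and stabilizes that RNA. Shelterin coats the repeats, hides the ends from DNA repair and controls the access of telomerase. Terf1 and Terf2 bind the double-stranded repeats, Terf2ip (Rap1) rides on Terf2, Tinf2 bridges Terf1 and Terf2, Acd (TPP1) joins Tinf2 to the POT1 proteins and recruits telomerase, and POT1 binds the single-stranded end. Mice have a pair of POT1 genes, Pot1a and Pot1b, where humans have a single one. Rif1 was found in yeast as a partner of Rap1. In mammals it is known mainly for the timing of DNA replication and the choice of DNA repair pathway. Telomerase is active in ESCs and is low in most differentiated cells.

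The sequence that telomerase copies is shown because the repeat that the shelterin proteins bind is made from it. The run of 9 bases in capitals is the longest stretch of the C-rich telomere repeat within Terc (positions 28 to 36, counted from the 5′ end). It is in the first 60 of the 423 bases of Terc, and the gene lies on the minus strand of GRCm38, with the printed bases at chr3:96414800-96414859 (GENCODE transcript).
Terc: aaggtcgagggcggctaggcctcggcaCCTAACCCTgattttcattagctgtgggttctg

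The paralogs Pot1a (chromosome 6, 25743737 to 25809246, minus strand) and Pot1b (chromosome 17, 55651951 to 55712628, minus strand) are shown at their longest identical stretch, because the separation of their counts rests on the bases that differ. Their coding sequences have 1920 bases each and were identical at 78.8% of 1917 aligned bases. The capitals mark the longest identical run, 41 bases (positions 469 to 509 of the coding sequence), and 15 bases are printed on each side.
Pot1a: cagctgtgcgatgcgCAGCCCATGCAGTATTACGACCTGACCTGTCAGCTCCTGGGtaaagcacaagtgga
Pot1b: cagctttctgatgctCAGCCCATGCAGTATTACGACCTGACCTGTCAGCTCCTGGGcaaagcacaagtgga
Of all windows of 100 bases along the longest coding transcript of each of the 10 genes, 0% occurred in a transcript of another gene. Windows were compared in a single orientation, so that overlaps with genes on the opposite strand were not covered.

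Between 32099074 and 47730944 counts fell on genes in a library, so that 3 counts, taken as the floor, corresponded to 0.0629 to 0.0935 CPM, the count relative to the library's total. These limits cover counting error only. The states carried their labels: all 5 markers of pluripotent cells fell, from a summed level of 2217 and 2385 CPM in Undiff to 15.3 and 11.8 CPM in Day4, and all 6 RA response genes rose, from 6.05 and 5.33 to 692 and 693 CPM. Markers of other cell types moved as well. Of 6 fibroblast markers 5 rose and Thy1 fell (summed level 66.3 and 62.2 CPM in Undiff, 1839 and 1689 CPM in Day4), and all 5 markers of extra-embryonic endoderm rose (373 and 377 CPM against 1452 and 1429 CPM), with Afp at 0 in both Undiff libraries. The endoderm sum was mostly Sparc, and without it the other 4 markers summed to 6.19 and 7.57 CPM in Undiff and 557 and 545 CPM in Day4. In Day4 this remainder was mostly Gata6 and Gata4 (means of 282 and 263 CPM), with Sox17 at 4.14 and Afp at 1.68 CPM. In such bulk RNA, fewer cells of a type and less RNA per cell cannot be told apart.

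The states were compared by the quasi-likelihood test of edgeR on 19891 genes, those counted at least once, and p-values were adjusted over all of them by Benjamini-Hochberg. Counts are given as normalized counts, scaled by the trimmed mean of M-values (TMM). Genes are said to rise or fall at an adjusted p of at most 0.05. They are called DEGs if the log2 fold change is also at least 1 in size and the mean normalized count at least 5. This is the rule of the study, which applied it to results of DESeq2, another test of counts. Of the 10 genes, 9 passed the adjusted p, 3 upwards and 6 downwards, where 75.6% of all genes tested did (37.9% upwards and 37.7% downwards). DEGs were 4 of the 10, Terf2ip upwards and Terf1, Rif1 and Dkc1 downwards, where 42.8% of all genes were (22.2% upwards and 20.6% downwards). The libraries of the states did not overlap for 9 of the 10, where this held for 85.4% of all genes. The share of DEGs and the share without overlap were near those over all genes. The median log2 fold change was -0.78 over the 10 genes and -0.03 over all genes tested. An exact permutation test of 2 libraries against 2 cannot give a two-sided p under 0.333, and the adjusted p-values therefore draw on the spread that edgeR estimates over all genes.

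**Figure D1:**
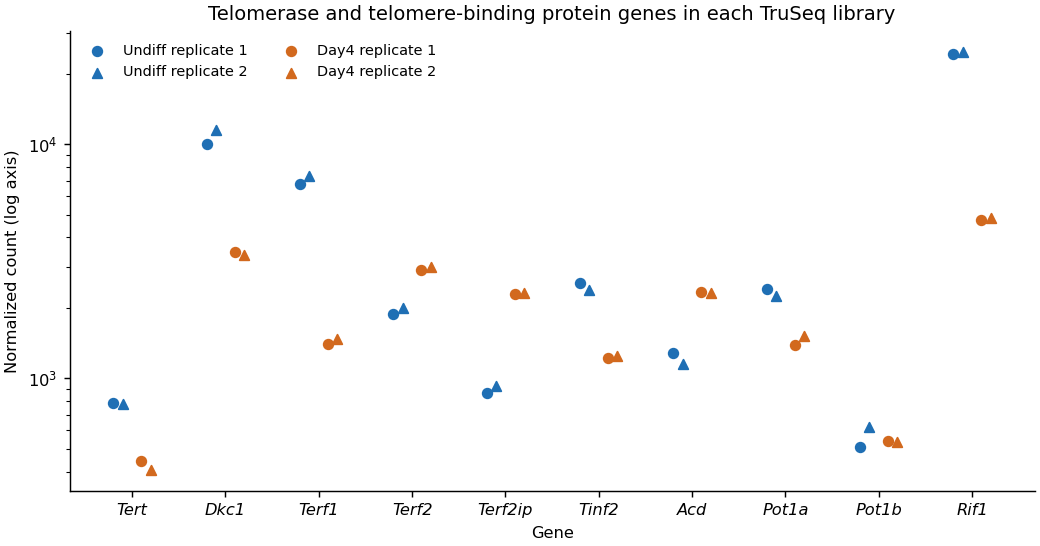
Normalized counts (TMM, log axis) of the 10 genes, with a point for each of the 2 Undiff and 2 Day4 libraries. Rif1, Terf1 and Dkc1 drop the farthest, Terf2ip, Acd and Terf2 rise, and the points of Pot1b overlap at 511 to 621.

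Tert, the reverse transcriptase (chromosome 13, 73626911 to 73649843, plus strand), was measured at 789 and 775 normalized counts in Undiff replicates 1 and 2 and at 442 and 407 in Day4 replicates 1 and 2. Both Day4 libraries were below both Undiff libraries, with 424 ± 24.8 against 782 ± 9.62 (SD, n = 2 each). Day4 kept 54.0% of the Undiff level (log2 fold change -0.89, edgeR adjusted p = 1.3e-07), and Tert was not a DEG because its fold change was under 2. Its transcripts were therefore still measured well above the floor in Day4, at 423 and 530 counts.

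Dkc1, the pseudouridine synthase of the H/ACA particles and of telomerase (chromosome X, 75095854 to 75109777, plus strand), had 9984 and 11536 normalized counts in Undiff and 3456 and 3360 in Day4. The states did not overlap, and Dkc1 was 3.16-fold lower in Day4 (log2 fold change -1.66, standard error 0.06, edgeR adjusted p = 1.8e-11). The fall on the log2 scale was larger for Dkc1 than for Tert, although the difference between these genes was not tested.

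Terf1, which binds the double-stranded repeats and limits telomere length (chromosome 1, 15805646 to 15844052, plus strand), fell the most of the shelterin genes. It had 6777 and 7349 normalized counts in Undiff and 1406 and 1468 in Day4, which was 4.91-fold lower (log2 fold change -2.29, standard error 0.05, edgeR adjusted p = 2.6e-13). Its partner in binding the same repeats went the other way. Terf2, which folds and protects the end (chromosome 8, 107069400 to 107096547, minus strand), had 1884 and 1993 normalized counts in Undiff and 2917 and 2998 in Day4. Both Day4 libraries were higher, 1.53-fold on average (log2 fold change 0.61, standard error 0.05, edgeR adjusted p = 1.2e-07), a change under the minimum for a DEG.

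Terf2ip, which is held at telomeres by Terf2 (chromosome 8, 112011398 to 112020528, plus strand), was the only one of the 10 genes to be a DEG upwards. It had 869 and 932 normalized counts in Undiff against 2288 and 2317 in Day4, with no overlap of the states. It was 2.56-fold higher in Day4 (log2 fold change 1.36, standard error 0.06, edgeR adjusted p = 8.6e-11).

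The bridging subunits moved in opposite directions. Tinf2, which links Terf1, Terf2 and Acd (chromosome 14, 55674689 to 55681820, minus strand), had 2547 and 2389 normalized counts in Undiff and 1227 and 1249 in Day4. Day4 kept 50.2% of the Undiff level, and the log2 fold change of -0.995 (standard error 0.06, edgeR adjusted p = 1.4e-09) lay just short of the minimum for a DEG. Under 7 of 12 other ways of processing it was past that minimum, so that the DEG call of Tinf2 depends on the processing. With DESeq2 at the settings of the study, its log2 fold change was -1.03 and it was a DEG. It fell past the adjusted p in all 12. Acd, which carries the surface that telomerase docks on (chromosome 8, 105695860 to 105701102, minus strand), had 1286 and 1153 normalized counts in Undiff and 2334 and 2313 in Day4. It was 1.90-fold higher in Day4 (log2 fold change 0.93, standard error 0.06, edgeR adjusted p = 7.0e-09). Without Undiff replicate 1 its log2 fold change was 1.01 and it was a DEG.

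The POT1 paralogs differed in what could be shown. In mice, Pot1a is known for holding back the DNA damage signal at telomeres and Pot1b for limiting the trimming of the C-rich strand. Pot1a had 2398 and 2258 normalized counts in Undiff and 1386 and 1513 in Day4, and Day4 kept 62.4% of the Undiff level (log2 fold change -0.68, standard error 0.06, edgeR adjusted p = 1.7e-07). Pot1b had 511 and 621 normalized counts in Undiff and 539 and 535 in Day4. The Day4 libraries lay between the Undiff libraries. The log2 fold change was -0.07 (standard error 0.09, edgeR adjusted p = 0.50), so a difference was not detectable at this spread. Leaving out Undiff replicate 1 gave -0.21 (edgeR adjusted p = 0.044) and leaving out Undiff replicate 2 gave 0.07 (adjusted p = 0.49), so that the direction for Pot1b rests on which Undiff library is used.

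Rif1 (chromosome 2, 52072832 to 52122383, plus strand) had the most counts of the 10 genes and the largest fold change. It had 24203 and 24742 normalized counts in Undiff and 4731 and 4845 in Day4. It was 5.11-fold lower in Day4 (log2 fold change -2.35, standard error 0.04, edgeR adjusted p = 1.5e-14), with no overlap of the states.

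**Figure D2:**
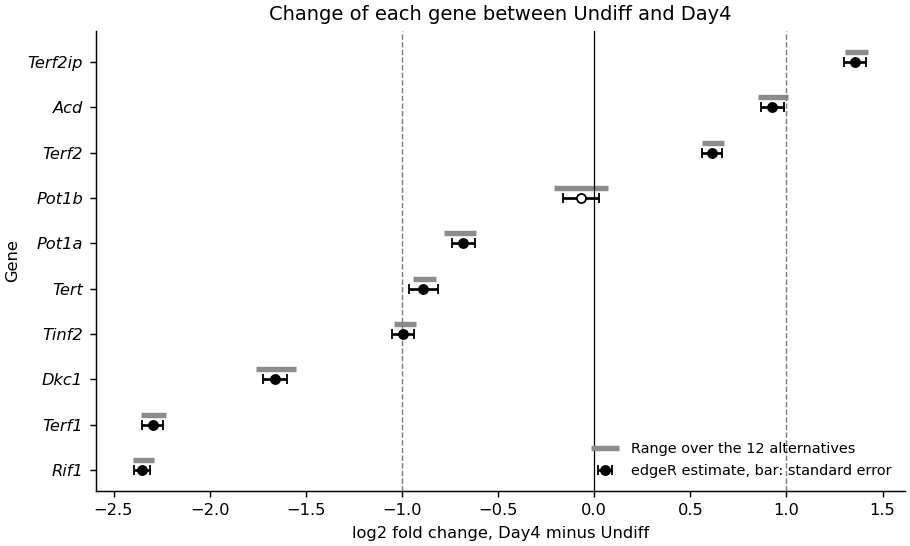
Log2 fold change of Day4 minus Undiff for the 10 genes (circles, open where the adjusted p is above 0.05) with bars of 1 standard error from the edgeR fit, grey bars for the range over 12 alternatives and dashed lines at the DEG minimum of 1 in either direction. Rif1 at -2.35, Terf1 at -2.29 and Dkc1 at -1.66 lie below the lower line and Terf2ip at 1.36 above the upper line, while the grey bars of Tinf2 and Acd cross a line and that of Pot1b crosses 0.

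Exons of Dkc1, Terf2ip, Tinf2 and Acd overlap exons of Mpp1, Gm6793, Gmpr2 and Carmil2, respectively, on the opposite strand. The methods name a strand-specific setting for other libraries of the study and state that TruSeq exons were counted without strand, but name no setting for the TruSeq gene counts used here, so that the counts of these genes are uncertain where they overlap.

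Fold changes do not say which of these transcripts was the most abundant, and levels were therefore compared per length, as CPM per kilobase of exon (the union of a gene's annotated exons). In Undiff, the order from the highest level was Dkc1 (68.1 ± 6.71 CPM per kilobase, SD, n = 2), Rif1 (60.8 ± 0.734), Terf1 (40.0 ± 2.15), Tinf2 (13.1 ± 0.634), Terf2 (11.0 ± 0.401), Acd (8.78 ± 0.705), Pot1a (7.01 ± 0.323), Terf2ip (4.74 ± 0.218), Tert (3.56 ± 0.0559) and Pot1b (2.80 ± 0.377). The libraries of no neighbours in this order overlapped. In Day4, the order was Dkc1 (22.6 ± 0.506), Terf2 (17.6 ± 0.299), Acd (17.5 ± 0.153), Terf2ip (12.7 ± 0.0827), Rif1 (12.5 ± 0.178), Terf1 (8.53 ± 0.238), Tinf2 (6.86 ± 0.0678), Pot1a (4.57 ± 0.272), Pot1b (2.79 ± 0.0213) and Tert (2.03 ± 0.123). Terf2 and Acd overlapped there, and the other neighbours did not. With this length, Terf2, Acd and Terf2ip were thus below Tinf2 in Undiff and above Terf1 and Tinf2 in Day4. Tert and Pot1b had the lowest levels in both states, and their order was Tert above Pot1b in Undiff and Pot1b above Tert in Day4.

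The choice of length moves these levels. The union of exons of Pot1a is 8669 bases and its longest coding transcript 3151 bases, compared with 5268 and 3523 bases for Pot1b. With the longest coding transcripts as lengths, Pot1a was level with Terf2 in Undiff (19.3 and 19.0 CPM per kilobase, libraries overlapping), Terf1 was above Rif1 in Undiff (81.3 and 75.1), and Terf1 was level with Terf2ip in Day4 (17.3 and 17.7, overlapping). With the longest annotated transcripts as lengths, Terf2 was not separate from Tinf2 in Undiff (19.0 and 19.1 CPM per kilobase, libraries overlapping), and Pot1a overlapped Terf2 (18.6). Acd and Terf2ip were still below Tinf2 there. With either of these lengths Dkc1 was still the highest in both states, and Tert and Pot1b the lowest.

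**Figure D3:**
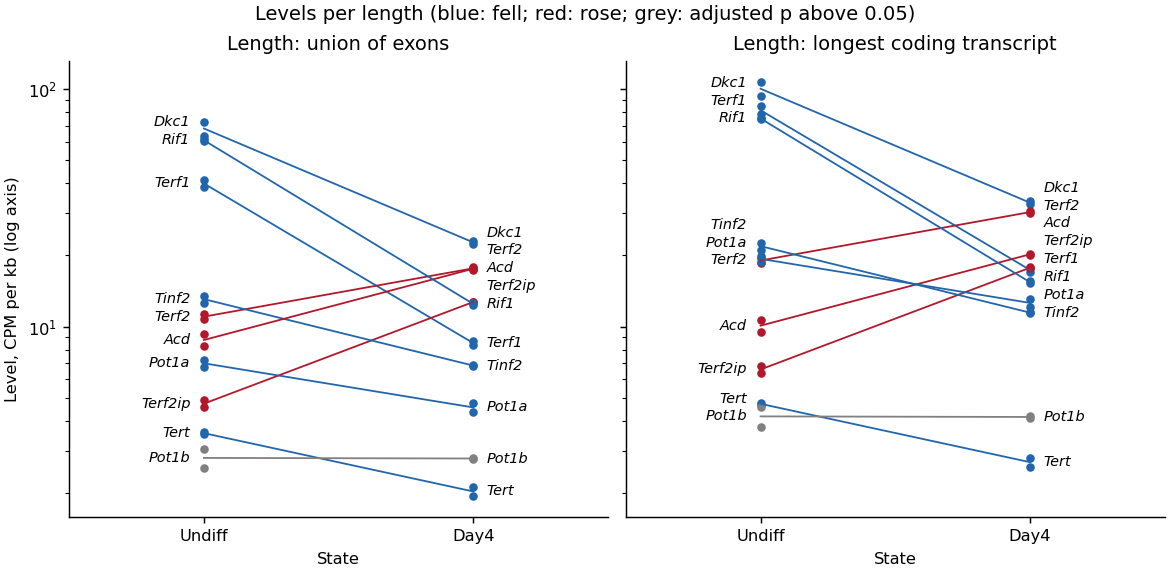
Level of each of the 10 genes in CPM per kilobase (log axis) in Undiff and Day4, with a point for each library and a line between the means, for the union of exons (left) and the longest coding transcript (right) as length. Blue genes fell, red genes rose and the grey gene, Pot1b, had an adjusted p above 0.05, and with either length the lines of Terf2, Acd and Terf2ip cross that of Tinf2.

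The makeup of the shelterin transcripts does not depend on how libraries are scaled to each other. Over the 7 shelterin genes, the summed level was 86.3 and 88.4 CPM per kilobase in Undiff and 70.0 and 71.1 in Day4. Terf1 took 44.6% and 47.0% of this sum in Undiff and 11.9% and 12.2% in Day4. Its share was the largest of the 7 in Undiff. Terf2 took 12.4% and 12.8% in Undiff against 24.8% and 25.0% in Day4. Acd took 10.7% and 9.37% against 25.2% and 24.5%, and Terf2ip 5.31% and 5.53% against 18.1% and 17.9%. Tinf2 went from 15.6% and 14.2% to 9.73% and 9.71%. The shares of Pot1a (8.38% and 7.67% against 6.26% and 6.70%) and Pot1b (2.94% and 3.47% against 4.00% and 3.90%) moved the least of the 7. For each of the 7 shares the states did not overlap, with p = 0.333 in the two-sided exact permutation test, the smallest that this design allows. With the longest coding transcripts as lengths, the share of Pot1a overlapped between the states (difference -0.83 percentage points, exact permutation p = 0.667).

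**Figure D4:**
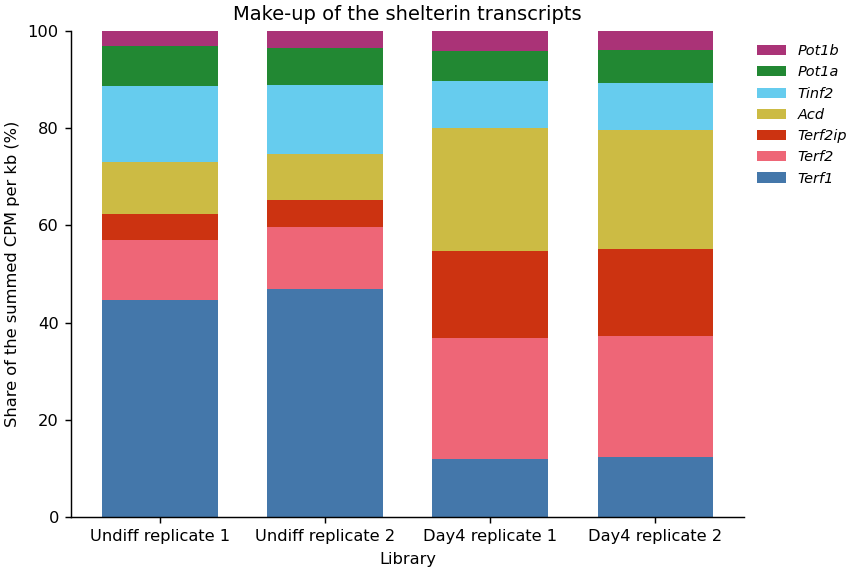
Share of each of the 7 shelterin genes in the summed shelterin level (percent of CPM per kilobase), as stacked bars for each of the 4 libraries. Terf1 takes 44.6% and 47.0% in Undiff and 11.9% and 12.2% in Day4, while Terf2, Acd and Terf2ip widen in both Day4 libraries.

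The level of Pot1b per level of Pot1a was 0.350 and 0.453 in Undiff and 0.640 and 0.582 in Day4, a mean of 0.402 ± 0.0722 against 0.611 ± 0.0410 (SD, n = 2 each). Both Day4 values were higher, with a two-sided p of 0.333 in the exact permutation test. The size of the ratio depends on the length: with the longest coding transcripts it was 0.191 and 0.246 in Undiff and 0.348 and 0.316 in Day4, in the same order. Pot1a thus had the higher level per length in all 4 libraries, and the ratio was nearer to 1 in Day4.

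Telomerase needs more than Tert and Dkc1, and 15 genes for its RNA and its assembly were examined. Of these, 13 fell and 1 rose by the adjusted p, where 75.6% of all genes tested passed it (37.7% downwards). As DEGs 6 fell and 0 rose. These DEGs are 40.0% of the list, where 42.8% of all genes tested were DEGs in either direction and 20.6% downwards. The median log2 fold change was -0.96 (-0.89 without Terc). Nhp2, a partner of dyskerin in the H/ACA particle, was the lowest, with 9825 and 10369 normalized counts in Undiff and 2230 and 2190 in Day4 (log2 fold change -2.19, standard error 0.05, edgeR adjusted p = 9.9e-14). The other proteins of the particle, named for their place beside dyskerin after their values were seen, had log2 fold changes of -1.54 for Nop10 and -0.96 for Gar1, and the assembly factors Naf1 and Shq1, which bring dyskerin to its RNA, had -1.90 and -1.89. Of the DEGs, Pinx1, an inhibitor of telomerase, had the smallest fall (-1.16). Dyskerin and its partners thus fell together, each past the adjusted p. Tgs1, which caps the telomerase RNA, was the gene that rose (log2 fold change 0.26, edgeR adjusted p = 0.00036). Terc itself had 3 counts and 1 count in Undiff and 1 count in each Day4 library, at the floor in both states. The mature RNA of Terc has no poly(A) tail and the TruSeq kit named in the methods selects poly(A) RNA, so that no level or fold is given for it.

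The C-rich strand at the end is filled in by the CST complex with DNA polymerase alpha and primase, given as 7 genes. By the adjusted p 2 rose and 5 fell, where 75.6% of all genes tested passed it. As DEGs 2 rose and 1 fell, 42.9% of the list, where 42.8% of all genes were DEGs. Obfc1, an older symbol of Stn1 of the CST complex, was the highest, with 726 and 747 normalized counts in Undiff and 1819 and 1995 in Day4 (log2 fold change 1.38, standard error 0.07, edgeR adjusted p = 2.8e-10). Pola1, the catalytic subunit of the polymerase, was the lowest at -1.03. Within CST, Ten1 rose with Stn1 (1.32) and Ctc1, the large subunit, fell (-0.28), each past the adjusted p. The proteins that bind the single-stranded end thus did not move together: Pot1a and Ctc1 fell, Stn1 and Ten1 rose, and Pot1b was not shown to change.

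Of 17 genes for the replication of telomeres and the processing of their ends, 12 fell and 3 rose by the adjusted p. Of all genes tested 75.6% passed it, 37.7% downwards. As DEGs 7 fell and 0 rose. These DEGs are 41.2% of the list, against the 42.8% of all genes in either direction and 20.6% downwards. Rad50, of the MRN complex that senses broken ends, was the lowest, with 7149 and 7356 normalized counts in Undiff and 1820 and 2061 in Day4 (log2 fold change -1.90, standard error 0.06, edgeR adjusted p = 2.6e-12). Xrcc5 (Ku80), which binds DNA ends, had the smallest fall among the DEGs (-1.21). Atm lay just short of the DEG minimum (-0.99) and was a DEG with either DESeq2 setting (-1.02), where 8 of the list were DEGs downwards. The tankyrases, poly(ADP-ribose) polymerases that bind TRF1 in human cells, were named after their values were seen and had log2 fold changes of 0.81 for Tnks (edgeR adjusted p = 2.4e-09) and -0.06 for Tnks2 (adjusted p = 0.16).

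Rif1 acts with other proteins, and 10 of 11 listed partners were measured, and Shld3 was not analysed here. By the adjusted p 5 rose and 4 fell, where 75.6% of all genes tested passed it. The median log2 fold change was 0.16. As DEGs 1 of the 10 rose and 1 fell, where 42.8% of all genes tested were DEGs. DEGs were Rnf8, a ubiquitin ligase of the DNA damage response (91 and 81 normalized counts in Undiff, 234 and 204 in Day4, log2 fold change 1.33), and Fam35a, an older symbol of the shieldin gene Shld2 (1278 and 1301 against 506 and 518, log2 fold change -1.33). Each passed with an edgeR adjusted p, 1.8e-06 for Rnf8 and 3.3e-10 for Fam35a. Rif1, which fell by 2.35 on the log2 scale, was below all of the measured partners, of which Fam35a was the lowest.

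Among 11 genes of telomere chromatin and of other binders of the telomere repeat, 5 rose and 6 fell by the adjusted p. Of all genes tested 75.6% passed it. As DEGs 3 rose and 3 fell, 54.55% of the list, where 42.8% of all genes were DEGs. The upward count was 2 with either DESeq2 setting, with DESeq2 size factors and after thinning, where Zbtb10 was just under the minimum fold change. The log2 fold change of Zbtb10 was 1.04 in the edgeR fit with TMM, 0.985 after thinning and 0.92 without Undiff replicate 1. Zfp827, a zinc finger protein known from telomeres that are kept without telomerase, was the highest, with 433 and 444 normalized counts in Undiff and 4220 and 4114 in Day4 (log2 fold change 3.25, standard error 0.06, edgeR adjusted p = 2.4e-14). The lowest were the Zscan4 genes, which are known from the short phases in which ESCs lengthen telomeres. Zscan4f had 47 and 62 counts in Undiff and 3 and 2 in Day4, at the floor, at least 19.7-fold lower in Day4. Zscan4c, Zscan4d and Zscan4f are near-identical copies, with 72.8%, 29.6% and 89.5% of their windows of 100 bases found in other transcripts, so that their separate counts are uncertain.

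A set of 5 genes ties telomeres to the nuclear envelope in meiosis. Of all genes tested 42.8% were DEGs, 20.6% downwards, and of these 5 genes 3 fell as DEGs. These were 4933406J08Rik, which is Terb2 (61 and 63 counts in Undiff, 0 and 1 in Day4, at least 22.2-fold lower), 1700123I01Rik, which is Majin (19 and 17 against 1 and 0, at least 6.40-fold lower), and Ccdc79, which is Terb1 (log2 fold change -1.55, edgeR adjusted p = 0.00098). Terb1 is the protein of this set that binds Terf1. All 3 were measured at few counts in Undiff too. Spdya rose by the adjusted p alone (log2 fold change 0.76, edgeR adjusted p = 0.036), and Kash5, listed as Ccdc155, was not shown to change.

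**Figure D5:**
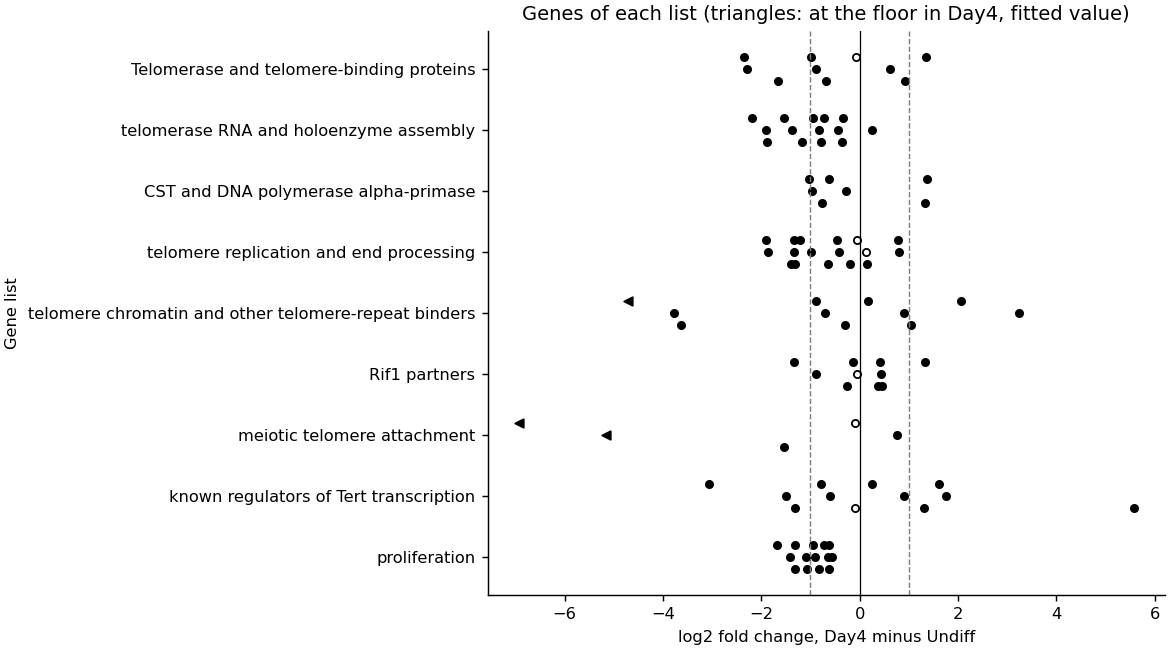
Log2 fold change of Day4 minus Undiff for each gene of the 10, of the related lists and of the proliferation list, with filled points past the adjusted p, open points not past it, triangles for fitted values of genes at the floor in Day4, and dashed lines at 1 in either direction. Terc is not drawn. In the list of telomerase RNA and assembly all points but Tgs1 (0.26) lie below 0, while the partners of Rif1 lie on both sides of it.

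Transcription factors known to act on Tert were examined as a list of 12, of which 6 rose and 5 fell by the adjusted p. Of all genes tested 75.6% passed it. The share of DEGs was 58.3% of the list, against 42.8% of all genes. The factors were not sorted here into activators and repressors. Klf4 fell as a DEG (1706 and 1798 normalized counts in Undiff, 210 and 208 in Day4, log2 fold change -3.07). Myc (1614 and 1906 against 629 and 625, -1.49) and Mycn (-1.32) fell as DEGs too. Sp1 (-0.78) and E2f1 (-0.60) fell by less than the DEG minimum, and Sp3 rose by 0.24. Max, the partner of Myc, was not shown to change (-0.10, edgeR adjusted p = 0.095). Beta-catenin (Ctnnb1, 1.32) and Ets2 (1.62) rose as DEGs. Mxd1, which competes with Myc for Max, rose by 1.76 and Men1 by 0.90. Wt1 rose by 5.58 (288 and 300 normalized counts in Undiff, 14092 and 13936 in Day4). Mxd1 and Wt1 were DEGs. All changes past the test had an edgeR adjusted p of at most 0.00027. The part of any of these changes in the fall of Tert was not tested.

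The promoter of Tert is shown because several of these factors bind GC boxes or E-boxes. The window is the 250 bases before the start of the RefSeq transcript, chr13:73626661-73626910 of GRCm38.p6, plus strand. Capitals mark matches to the GC box GGGCGG on either strand, here read as its reverse complement.
Tert: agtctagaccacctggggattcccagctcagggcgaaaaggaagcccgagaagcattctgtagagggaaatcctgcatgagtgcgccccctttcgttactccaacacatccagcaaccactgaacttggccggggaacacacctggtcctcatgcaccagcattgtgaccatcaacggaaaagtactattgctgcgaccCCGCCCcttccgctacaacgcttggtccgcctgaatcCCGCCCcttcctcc
The window held 2 GC boxes, where 32.7% of the 32851 RefSeq promoters of the same length held at least 1. The E-box CACGTG, which is its own reverse complement, was not in this window, and 6.0% of all promoters held it. Of the 10 genes, 8 were matched to the RefSeq promoters, without Terf1 and Rif1. Pot1a and Pot1b held 1 GC box each, Acd, Dkc1, Terf2, Terf2ip and Tinf2 held 0, and none of the 8 held the E-box. No match overlapped another. A match is a match of letters and shows no binding.

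Cell division genes moved along with the genes that fell. All 14 genes of a proliferation list fell by the adjusted p, which 75.6% of all genes tested passed (37.7% downwards). DEGs were 6 of the 14, 42.9% of the list, against 42.8% of all genes in either direction and 20.6% downwards. The log2 fold changes lay between -1.69 and -0.57, with a median of -0.93, and among the DEGs Ccnb1, a mitotic cyclin, was the lowest at -1.69 and Mcm3, of the replicative helicase, the highest at -1.08. Their summed level was 6547 and 6345 CPM in Undiff and 3249 and 3384 CPM in Day4. Rif1 and Terf1 fell by more on the log2 scale than the lowest of these 14 genes, Dkc1 by about as much as that gene, and Tert, Tinf2 and Pot1a by amounts within their range. The part of proliferation, of the pluripotency markers and of the fibroblast and endoderm markers in the changes of the 10 genes was not tested.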

How the data were processed

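RNA of R1 ESCs was sequenced by the authors as 2 Undiff and 2 Day4 TruSeq libraries. According to the methods and the submitters' processing notes, the authors used cutadapt for trimming, STAR 2.4.2a for alignment to mm10 and HTSeq to count uniquely aligned fragments per gene. The deposited values are raw counts, listed by gene symbol. Fragments on no gene made up 7.50% to 13.2% of a library and those on more than 1 gene 1.84% to 1.91%, and both were left out.

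Counts were scaled by TMM and tested with edgeR 4.0.16 in R 4.3.3 (glmQLFit, glmQLFTest, state as the only term) over the 19891 genes with a count. Standard errors are the size of the log2 fold change over the square root of F. The fit was tested on simulated data. Counts of replicates differed by more than sampling noise (chi-square per degree of freedom 5.71 in Undiff and 3.07 in Day4). A fold against libraries at the floor of 3 counts was computed against the highest floor of a Day4 library. Positions and lengths come from GENCODE vM21 (GRCm38, the assembly behind mm10), which is not the annotation of the counting, and promoters are from RefSeq.

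All 10 genes were named. Of each related list the DEG with the highest and the one with the lowest log2 fold change, genes at the floor and genes not measured were named, and the regulators of Tert were all named. The H/ACA partners and assembly factors of dyskerin, Tgs1, Ten1, Ctc1, Prim2, Atm and the tankyrases were added after their values were seen. So were Rnf168, Zbtb10, Zscan4c, Zscan4d, Spdya, Ccdc155, Thy1, Afp, Sparc, Sox17, Gata4 and Gata6. The genes and lists were chosen with earlier results of these data known. The alternatives were DESeq2 1.42.0 with and without shrinkage, its size factors or library totals in place of TMM, filterByExpr, a replicate block, thinning to the smallest total (seed 20), leaving out each library, and other gene lengths. The deviances of edgeR 3 and the longest coding transcript were added after the data were seen. Long-read libraries were not analysed here.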

Additional observations from a re-analysis of the deposited data

How the results depend on the processing

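Over 12 alternatives, the 9 genes that rose or fell kept their direction and an adjusted p of at most 0.05 in each. Pot1b passed it once, at -0.21 without Undiff replicate 1, and turned to 0.0723 without Undiff replicate 2. With library totals in place of TMM, Tnks2 turned to 0.009 and Rnf168 to 0.0138, neither past the test. The number of the 10 genes that were DEGs upwards was 1, and between 1 and 2 when a library was left out. DEGs downwards among CST and polymerase genes were 1, 2 with either DESeq2 setting, with DESeq2 size factors and after thinning, 0 with library totals, and between 1 and 2 when a library was left out. DEGs downwards among the replication genes were 7, and 8 with either DESeq2 setting, DESeq2 size factors, filterByExpr or thinning. Prim2, Pola1, Atm and Zbtb10 lie at the minimum fold change. Among the meiotic genes, 1 gene rose by the adjusted p (Spdya), 0 with either DESeq2 setting and after thinning, and between 0 and 1 when a library was left out. The median log2 fold change of all genes lay between -0.10 and 0.04 over the settings. Where a library was left out, the remaining one was assumed to vary like those of the other state. The cause of these shifts was not tested. The replicate numbers are shared by the states. Over genes, deviations of Undiff and Day4 replicate 1 from their state means had a correlation of -0.005. With 2 libraries per state, replicate 2 only mirrors these deviations. This is a single comparison, which cannot show whether the replicates are paired. With the replicate block, the DEGs were 4414 upwards and 4101 downwards in place of 4420 and 4101, and among the 10 genes 1 and 3 as without it.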
